A study of Arabidopsis thaliana with 36 samples.

Results

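Transcript levels of hda9-1 seedlings were set directly against those of pif4-2 seedlings of Arabidopsis thaliana, both aged 7 days and grown at 27 °C. The 3 hda9-1 and 3 pif4-2 libraries of this condition were compared over all genes that reached a value of at least 10 in 3 or more of them, which held for 20577 of the 33540 genes in the files. hda9-1 is a mutant of HISTONE DEACETYLASE 9, and pif4-2 a mutant of PHYTOCHROME INTERACTING FACTOR 4, both in the Col-0 background. Col-0 itself served as the wild type (WT). The series holds 36 libraries of these 3 genotypes, taken at 22 or 27 °C and at an age of 2 or 7 days. Used beside the 6 libraries of the comparison are the WT seedlings at 27 °C and the hda9-1, pif4-2 and WT seedlings at 22 °C, all aged 7 days, with 3 libraries in each group. All plants grew on agar in short days of 8 h light and were collected whole when the lights came on, so the values describe 1 time of day. Each library was made from RNA of 3 batches of seedlings that had been harvested apart and then combined. The p-values below therefore measure the spread between such combined samples. Each gene is represented by 1 mutant allele, present throughout growth, and no measure of developmental stage other than age is given.

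PIF4 is a basic helix-loop-helix (bHLH) transcription factor that promotes stem and petiole elongation in warmth and shade. It is inactivated by phytochrome B, a red light receptor that also senses temperature, and it activates auxin genes through the G-box and the PIF-binding E-box (PBE) of their promoters. HDA9 removes acetyl groups from histones, a step mostly tied to lower transcription. In seedlings it is also known for the loss of the histone variant H2A.Z from the auxin biosynthesis gene YUC8 in warmth, and for the repression of seed and flowering genes. Mutants of either gene elongate less than the wild type in warm conditions. Their direct comparison asks where 2 mutants with a like growth defect differ in their transcripts.

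The 6 libraries held 28455368 to 55595915 reads in genes, and the 18 libraries of 7-day-old seedlings 21906850 to 55595915. The deposited values, called normalised counts below, are reads per gene after division by a library's size factor. The first principal component of the 6 libraries held 58.5% of their variance and placed hda9-1 at 24.88 to 31.11 and pif4-2 at -28.94 to -24.63. The second placed replicate 3 of both mutants, at 19.99 and 16.42, opposite replicate 2, at -20.05 and -15.36. Replicate 3 of pif4-2 at 22 °C stood apart from its group on the fourth component of the 18 libraries (-44.37). It enters the comparison at 27 °C only through the shared estimate of spread, and counts without it are given where they differ by more than 1.5 times. The defining markers of both organs of a whole seedling were present: all 10 root markers and all 5 green tissue markers were tested. Of the 5 seed markers 2 were tested, and SESA1, a seed storage protein, was at 0 in all 6 libraries.

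The deacetylase mutants and the PIF4 mutants differed at many genes by small amounts. At an adjusted p under 0.05 (limma, Benjamini-Hochberg over the 20577 genes) 6255 genes were called, 30.4% of those tested. Of these, 3307 were higher in hda9-1 (16.1% of those tested) and 2948 lower (14.3%). The median size of the log2 difference, hda9-1 minus pif4-2, was 0.38 among called genes and 0.19 among all genes. A difference of at least 2-fold was found for 389 called genes (1.89%), of which 120 were higher and 269 lower in hda9-1. Genes past this fold had low counts: their median was 48.8 normalised counts, against 543 for all genes tested. The 3 hda9-1 values and the 3 pif4-2 values did not overlap at 10137 genes (49.3%). Called genes were spread over the nuclear chromosomes, with 29.1% of tested genes called on chromosome 5 and 31.8% on chromosome 4. The log2 differences were computed after adding 1 to each value, which makes those of low genes too small, and the strand setting of the counting is not given in the sources used here, so overlapping genes can include each other's reads. Of the genes named below, EARLI1, AT5G60610, AT4G13575, HEI10, PIF7, CKX5, XTH15, LNK1, HSP17.4, RAB18, PORC, LHCB3, OLEO2, NPR1, APG9, PAO, CPD, HIPP21, FER1 and HTA4 overlap another annotated gene, and their counts are uncertain for that reason.

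**Figure D1:**
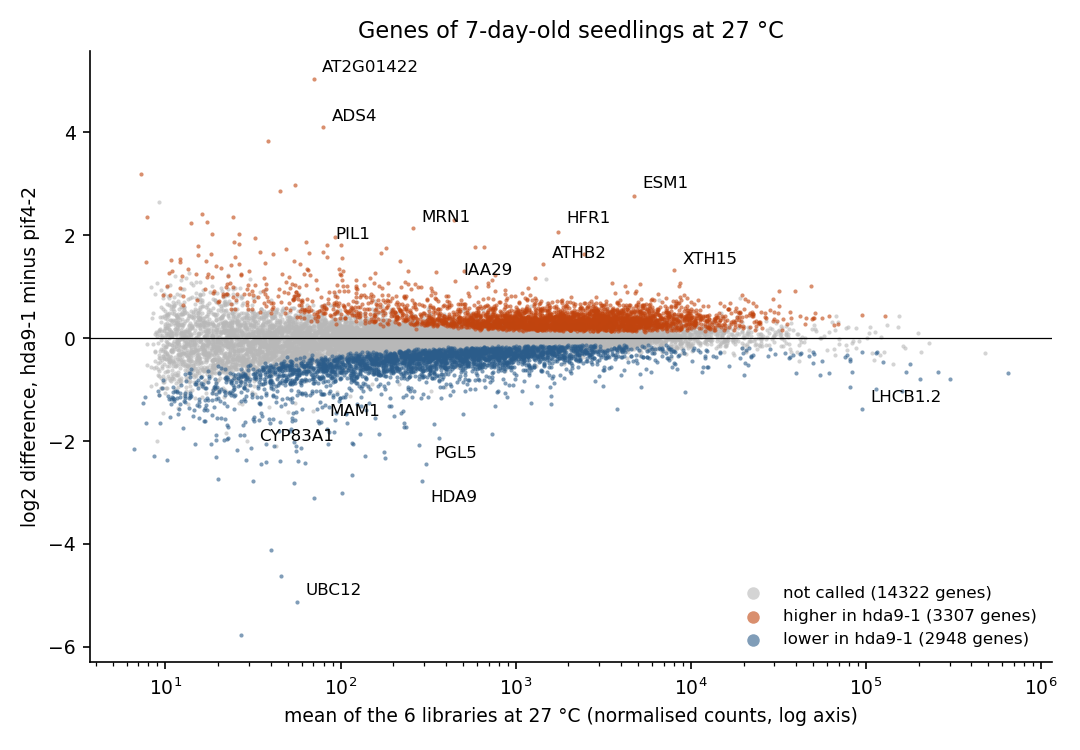
Each point is 1 of the 20577 genes tested, with its mean over the 6 libraries at 27 °C (normalised counts, log axis) against the log2 difference hda9-1 minus pif4-2. Orange points were called higher in hda9-1 (3307 genes) and blue points lower (2948). ESM1 at 2.76 and HFR1 at 2.06 combine a large difference with a high count, while most points past 2-fold lie at the left.

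The mutated genes were examined first, since they check the labels. HDA9 (AT3G44680, chr3:16226519-16230009 in TAIR10.1) stood at 74.7, 73.8 and 71.7 normalised counts in hda9-1, against 489.9, 535 and 505 in pif4-2 and 488, 483 and 474 in WT. All 3 hda9-1 libraries were low and the pif4-2 libraries lay at the WT level, with HDA9 6.87-fold lower in hda9-1 than in pif4-2 (log2 difference -2.78, SE 0.14, adjusted p = 5.83e-10). Reads over the whole PIF4 gene (AT2G43010) came to 5230.4, 6160.1 and 5609 normalised counts in hda9-1, against 4748, 4993 and 4649 in pif4-2 and 7767, 7939 and 8582 in WT. They were higher in hda9-1 than in pif4-2 without overlap, but both mutants lay under every WT library, and the call was a weak one (log2 difference 0.24, SE 0.09, adjusted p = 0.0478). It was lost in 8 of 14 alternative settings, with an adjusted p of up to 0.189 when hda9-1 replicate 2 was left out. Reads over a whole gene do not show what protein an insertion allele makes, so PIF4 does not check the label pif4-2.

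Among HDA9 partners and other deacetylases of its RPD3 type, 1 of the 9 tested members (of 12 listed) was higher in hda9-1 and 2 were lower, with a median log2 difference of -0.04 over the list against 0.01 over all genes. The called share of this list was 33.3%, near the 30.4% of all genes. HDA8, a related deacetylase, held 2905, 2793 and 2846 normalised counts in hda9-1, against 2077, 2183 and 2152 in pif4-2 and 2502, 2554 and 2625 in WT (log2 difference 0.41, SE 0.05, adjusted p = 4.94e-06). WT lay between the mutants at HDA8, and no value of one group fell within another. HDA19, a broadly acting deacetylase, was lower in hda9-1 by a small step, at 5098, 4791 and 5112 normalised counts in hda9-1, against 5460.4, 5762 and 5525 in pif4-2 (log2 difference -0.16, SE 0.05, adjusted p = 0.0177), and so was HDA5 (log2 difference -0.18). Neither call held in all settings: both were lost without hda9-1 replicate 2, HDA19 also without pif4-2 replicate 2, and HDA5 also without pif4-2 replicate 1 or 3. With the replicate number as a block, 2 members in place of 1 were called higher. Of the 7 genes for H2A.Z and its remodellers, none was higher and 2 were lower (28.6% called, under the 30.4% of all genes). The 2 were the H2A.Z histones HTA11 (log2 difference -0.42, adjusted p = 0.0285) and HTA8 (-0.42, adjusted p = 0.0433). Neither histone was called once hda9-1 replicate 1, 2 or 3 or pif4-2 replicate 1 or 3 was left out.

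**Figure D2:**
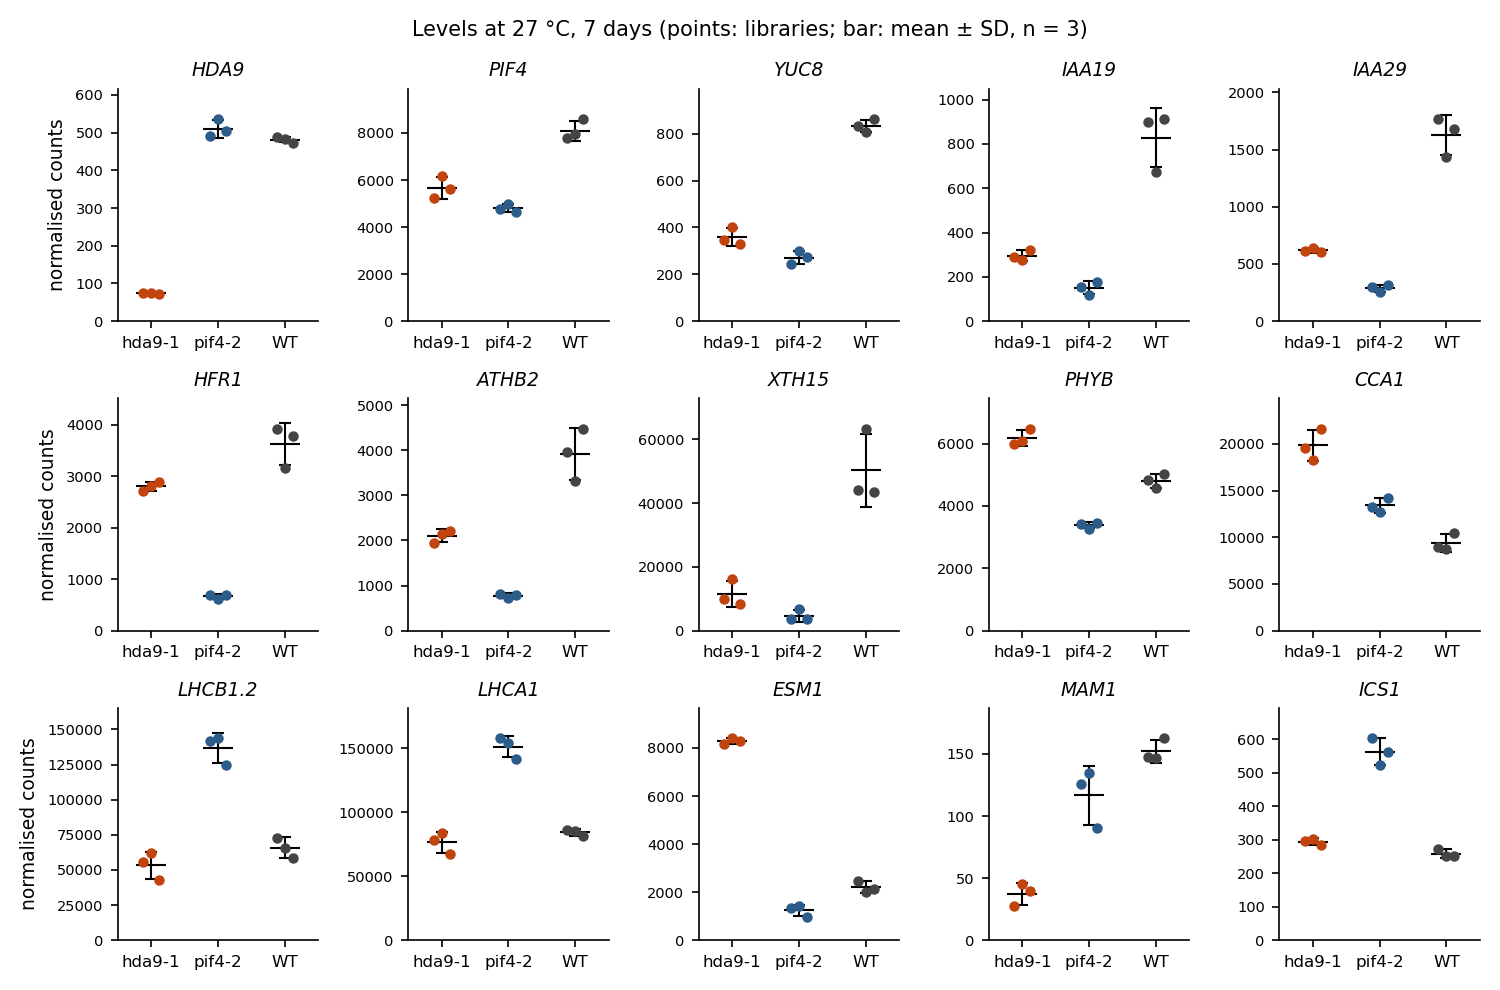
Levels of 15 genes at 27 °C in normalised counts (axes start at 0), with 1 point per library and the mean ± SD of 3 libraries for hda9-1, pif4-2 and WT. At HFR1, ATHB2, IAA19, IAA29 and XTH15 hda9-1 lies between pif4-2 and WT, whereas PHYB, CCA1 and ESM1 are highest in hda9-1 and LHCB1.2, LHCA1 and ICS1 highest in pif4-2.

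Several genes that PIFs activate in shade and warmth were higher in hda9-1 than in pif4-2, and most of those named stayed below WT in both mutants. In the PIF family and its atypical bHLH antagonists 3 of 9 members were higher and 1 lower (44.4% called, median log2 difference 0.26). Of 12 PIF and shade targets 7 were higher, 5 were not called and none was lower (58.3% called, median 0.36). Among all genes 30.4% were called. HFR1 (AT1G02340), an atypical bHLH protein that binds PIFs and keeps them off DNA, held 2708, 2812 and 2890.1 normalised counts in hda9-1, against 695, 615 and 701 in pif4-2 and 3920.2, 3152 and 3777 in WT. Every hda9-1 library lay somewhat below every WT library, and every pif4-2 library lay far below both (4.18-fold higher in hda9-1, log2 difference 2.06, SE 0.13, adjusted p = 2.44e-08). PIL1 (AT2G46970), another bHLH protein of this group and a standard marker of shade, held 99.3, 140.4 and 150.2 normalised counts in hda9-1, against 32.1, 31.7 and 45.7 in pif4-2 and 408, 342 and 447 in WT (log2 difference 1.80, SE 0.26, adjusted p = 6.76e-05). PAR1, also an atypical bHLH antagonist, was higher in hda9-1 (log2 difference 0.54, adjusted p = 0.0177), though not without hda9-1 replicate 2 or pif4-2 replicate 3. PIF7, a PIF that acts in shade and warm days, went the other way, at 235, 232 and 221 normalised counts in hda9-1, against 321, 279.6 and 273 in pif4-2 and 151, 146 and 121 in WT (log2 difference -0.34, SE 0.10, adjusted p = 0.02). That call was lost without hda9-1 replicate 3 or pif4-2 replicate 1.

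ATHB2 (AT4G16780), a homeobox factor and early shade target, held 1943, 2148 and 2216 normalised counts in hda9-1, against 823, 733 and 782 in pif4-2 and 3959.8, 3329 and 4476 in WT (log2 difference 1.43, SE 0.10, adjusted p = 8.13e-08). CKX5 (AT1G75450), an enzyme that breaks down cytokinin, held 295, 415 and 268 normalised counts in hda9-1, against 100.3, 117 and 123 in pif4-2 and 712, 642 and 648 in WT (log2 difference 1.49, SE 0.15, adjusted p = 2.87e-06). At both genes the 3 groups were fully parted, in the order pif4-2, hda9-1, WT from low to high. XTH15 (AT4G14130), a cell wall remodelling enzyme, showed the same order with wider spread, at 9942, 16101 and 8319 normalised counts in hda9-1, against 3577, 6857 and 3509.6 in pif4-2 and 44059.5, 63293 and 43328 in WT (log2 difference 1.32, SE 0.24, adjusted p = 0.000572). For ST2A (AT5G07010), a sulfotransferase, the values were 1670.1, 2279.7 and 1409 normalised counts in hda9-1, against 805, 889 and 671 in pif4-2 and 10724, 12635 and 9869 in WT (log2 difference 1.16, SE 0.16, adjusted p = 4.30e-05). Here both mutants lay far from WT and the step between them was the smaller one. The differences from WT, which share the 3 WT libraries, were -0.36 (adjusted p = 0.0423) and -2.43 (adjusted p = 1.07e-09) for HFR1 in hda9-1 and in pif4-2, -0.89 (adjusted p = 4.01e-06) and -2.32 (adjusted p = 7.04e-11) for ATHB2, and -2.65 (adjusted p = 5.83e-09) and -3.81 (adjusted p = 4.43e-11) for ST2A.

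Of 21 tested auxin response genes (22 listed) 14 were higher in hda9-1 and 1 lower, a called share of 71.4% beside 30.4% of all genes, with a median log2 difference of 0.49. The 14 fell to 9 without hda9-1 replicate 3 and to 8 without pif4-2 replicate 1. IAA29 (AT4G32280), a repressor of the Aux/IAA family whose gene is itself switched on by PIFs and auxin, held 612, 641 and 603 normalised counts in hda9-1, against 295, 252 and 316 in pif4-2 and 1766, 1433 and 1683 in WT (log2 difference 1.11, SE 0.10, adjusted p = 8.74e-07). IAA19 (AT3G15540), a close relative with a role in stem growth, held 289, 275 and 323 normalised counts in hda9-1, against 155, 119 and 176 in pif4-2 and 901, 674 and 911 in WT (log2 difference 0.99, SE 0.16, adjusted p = 0.000212). In both genes the groups did not overlap and hda9-1 lay much nearer to pif4-2 than to WT in counts. SAUR22 (AT5G18050), a member of a family of small growth-promoting proteins with near-identical copies, held 187, 217 and 257 normalised counts in hda9-1, against 88.8, 100.2 and 139 in pif4-2 and 569, 357 and 549 in WT (log2 difference 1.02, SE 0.19, adjusted p = 0.000803). Reads of the SAUR19 to SAUR24 group may be split between copies, so their counts are uncertain. IAA7, an Aux/IAA repressor linked to gibberellin and stem growth, was higher as well (log2 difference 0.40, adjusted p = 0.000586).

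In auxin biosynthesis 2 of 12 tested genes (13 listed) were higher in hda9-1 and none was lower, a share of 16.7% called, under the 30.4% of all genes. YUC8 (AT4G28720), the flavin monooxygenase through which PIF4 raises auxin in warmth, held 346, 401 and 331 normalised counts in hda9-1, against 242, 301 and 272 in pif4-2 and 831, 807 and 861 in WT. The groups of mutants did not overlap and both stood at less than the lowest WT value, but the difference between the mutants was not called (log2 difference 0.40, SE 0.16, adjusted p = 0.0672). The main test used no pairing of libraries. In an alternative setting, replicate numbers were taken as pairing the 27 °C libraries, which the labels do not say. With the number as a block YUC8 was called (adjusted p = 0.0437), as it was with edgeR (0.0315), DESeq2 (0.00862), a fit of the compared groups alone (0.0157) and a fit without pif4-2 replicate 3 at 22 °C (0.00157). These were 5 of 14 alternative settings, and in the others YUC8 was not called, with an adjusted p of up to 0.216. YUC5, of the same enzyme family, held 81.6, 85.4 and 61.9 normalised counts in hda9-1, against 39.0, 44.8 and 50.8 in pif4-2 and 38.2, 36.9 and 44.0 in WT (log2 difference 0.75, SE 0.20, adjusted p = 0.00837), with pif4-2 at the WT level and hda9-1 above both. YUC3 was called higher in hda9-1 (log2 difference 0.39, adjusted p = 0.0262), but not without hda9-1 replicate 1 or 2 or pif4-2 replicate 1 or 3.

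Promoters of genes that carry these differences are shown because the G-box (CACGTG, its own reverse complement) and the PBE (CATGTG or its reverse complement CACATG) are the sites that PIF proteins bind. They were read from RefSeq's TAIR10.1, matched by locus, as the 250 bases before the annotated start, 5′ to 3′ on the strand of the gene, with the motifs in capitals. IAA19 (chr3:5263751-5264000, plus strand) has a PBE 177 bases and a G-box 70 bases before its start. The clock genes LHY (chr1:37872-38121, minus strand) and CCA1 (chr2:19245341-19245590, plus strand), described next, have a G-box 80 and 193 bases before theirs.
IAA19: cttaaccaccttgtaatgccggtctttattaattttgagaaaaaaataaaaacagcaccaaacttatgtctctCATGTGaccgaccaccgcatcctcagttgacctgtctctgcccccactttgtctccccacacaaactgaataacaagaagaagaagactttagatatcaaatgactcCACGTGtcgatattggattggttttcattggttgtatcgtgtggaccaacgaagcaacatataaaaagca
LHY: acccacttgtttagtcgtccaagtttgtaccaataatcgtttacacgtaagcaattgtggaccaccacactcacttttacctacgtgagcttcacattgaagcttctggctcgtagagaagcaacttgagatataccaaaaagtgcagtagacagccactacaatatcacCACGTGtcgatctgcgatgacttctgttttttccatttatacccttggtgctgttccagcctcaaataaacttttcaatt
CCA1: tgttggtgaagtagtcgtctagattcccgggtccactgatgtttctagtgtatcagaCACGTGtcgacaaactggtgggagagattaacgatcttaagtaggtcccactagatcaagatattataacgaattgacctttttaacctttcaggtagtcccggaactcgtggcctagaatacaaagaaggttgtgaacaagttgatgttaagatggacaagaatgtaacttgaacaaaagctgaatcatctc

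A search of 300 bases per gene, 250 before and 50 after the start, on both strands found a G-box in 8.80% of the 20458 promoters of tested genes and a PBE in 12.8%. No stretch of 6 bases can match both motifs. Among genes called higher in hda9-1 the shares were 8.98% and 12.6%, and among genes called lower 9.34% and 12.1%. Among genes at least 2-fold higher, 4 of 120 promoters (3.33%) held a G-box and 18 (15.0%) a PBE. Among genes at least 2-fold lower, 39 of 269 (14.5%) held a G-box and 36 (13.4%) a PBE. The evening element (AAAATATCT or AGATATTTT), a site of clock proteins, was found in 2.89% of all promoters, 2.57% of those higher and 3.47% of those lower in hda9-1. No hit in this window was found for HFR1, PIL1, ATHB2 or IAA29, which says only that these letters are not in those 300 bases.

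Of 12 genes for photoreceptors and light signalling 5 were higher in hda9-1 and none lower, and the 7 others were not called (median log2 difference 0.20). The called share was 41.7%, beside 30.4% of all genes. PHYB (AT2G18790), which encodes the phytochrome that inactivates PIF4, held 5993, 6073 and 6472 normalised counts in hda9-1, against 3433, 3263 and 3465 in pif4-2 and 4819, 4576 and 5014 in WT (log2 difference 0.87, SE 0.07, adjusted p = 2.27e-07). All hda9-1 values lay above WT and all pif4-2 values below it. PHYA (AT1G09570), the phytochrome of far-red light, held 25915, 31911 and 25962 normalised counts in hda9-1, against 16159, 19289 and 16666 in pif4-2 and 38153, 42198 and 38862 in WT (log2 difference 0.68, SE 0.09, adjusted p = 1.93e-05), so that hda9-1 was again above pif4-2, but here both were below WT. SPA1, a partner of the COP1 ubiquitin ligase, and CRY1, a blue light receptor, were higher by log2 differences of 0.41 and 0.28, and at both genes WT was below both mutants. PHYB has a G-box 146 and another 111 bases before its start.

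Of 17 circadian clock genes, which were all tested and all sampled at lights on, 9 were higher in hda9-1 and none lower (52.9% called, beside 30.4% of all genes, median log2 difference 0.37). The promoters of the related dawn repressors CCA1 and LHY are shown above. CCA1 (AT2G46830) held 19563, 18307 and 21614 normalised counts in hda9-1, against 13241, 12735 and 14242 in pif4-2 and 8944, 8776 and 10480.2 in WT. LHY (AT1G01060) held 20849, 17479 and 20119.6 normalised counts in hda9-1, against 14162, 12301 and 13190.1 in pif4-2 and 10015, 9426 and 10049 in WT. Both pairs of mutant groups were fully parted, and WT lay below pif4-2 in both cases (log2 differences hda9-1 minus pif4-2 of 0.56 for CCA1, adjusted p = 4.41e-05, and 0.56 for LHY, adjusted p = 5.61e-05). RVE8, a related activator of evening genes, held 4642, 4115 and 4745 normalised counts in hda9-1, against 3290.5, 2989.8 and 3211 in pif4-2 and 2618, 2343 and 2613 in WT (log2 difference 0.51, SE 0.07, adjusted p = 4.17e-05). LNK1, its coactivator, was higher by 0.39 on the log2 scale. For RVE8 and LNK1 too the order was WT, pif4-2, hda9-1 from low to high. These genes peak around dawn, and a single time of day cannot tell a change of level from a change of phase.

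Of 28 tested genes of photosynthesis and chlorophyll none was higher in hda9-1 than in pif4-2 and 15 were lower, 53.6% called beside 30.4% of all genes, with a median log2 difference of -0.39. LHCB1.2 (AT1G29910), an antenna protein of photosystem II, held 55748, 61719.9 and 42819 normalised counts in hda9-1, against 141694, 143677 and 124834 in pif4-2 and 72954, 65934 and 58188 in WT (log2 difference -1.37, SE 0.24, adjusted p = 0.000428). LHCA1 (AT3G54890), an antenna protein of photosystem I, held 78280.2, 83521 and 67655 normalised counts in hda9-1, against 157945, 154455 and 141830 in pif4-2 and 86422, 85714 and 81486 in WT (log2 difference -0.99, SE 0.14, adjusted p = 7.59e-05). At both genes every pif4-2 library was far above every library of hda9-1 and of WT, and the hda9-1 range overlapped the lower end of WT. LHCB3 (AT5G54270), also of the photosystem II antenna, held 100133, 122800 and 93117 normalised counts in hda9-1, against 205933, 221722 and 214572 in pif4-2 and 137237, 117632 and 112418 in WT (log2 difference -1.03, SE 0.18, adjusted p = 0.000462), with hda9-1 and WT overlapping. PORC (AT1G03630), which makes chlorophyllide in the light, held 2551, 2446 and 2471 normalised counts in hda9-1, against 3951, 3538 and 3934 in pif4-2 and 2017, 1698 and 1784 in WT (log2 difference -0.61, SE 0.06, adjusted p = 1.71e-06), and here WT was below both mutants. LHCB1 genes are near-identical copies, so reads may be shared out between them unevenly. In whole seedlings, fewer green cells and less RNA per cell cannot be told apart. The summed level of the 5 green tissue markers was 922500 to 971900 normalised counts in hda9-1, against 1250000 to 1291000 in pif4-2 and 692500 to 868800 in WT, with 0 of 5 higher and 3 lower. These markers all belong to the photosynthesis list, LHCA1 among them, so their sum is no separate measure of the amount of green tissue. The part of tissue amount in the result was not tested. The 10 root markers summed to 3653 to 3978 in hda9-1, against 3560 to 3947 in pif4-2 and 3633 to 3809 in WT. In the longer list of root tissue markers 2 of 11 were lower and none higher: SHR, a root patterning factor (log2 difference -0.21), and COBL9, needed for root hairs (-0.91), whose mutant groups overlapped. SHR was lost without pif4-2 replicate 1 and COBL9 without any of hda9-1 replicates 2 and 3 and pif4-2 replicates 1 and 2.

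**Figure D3:**
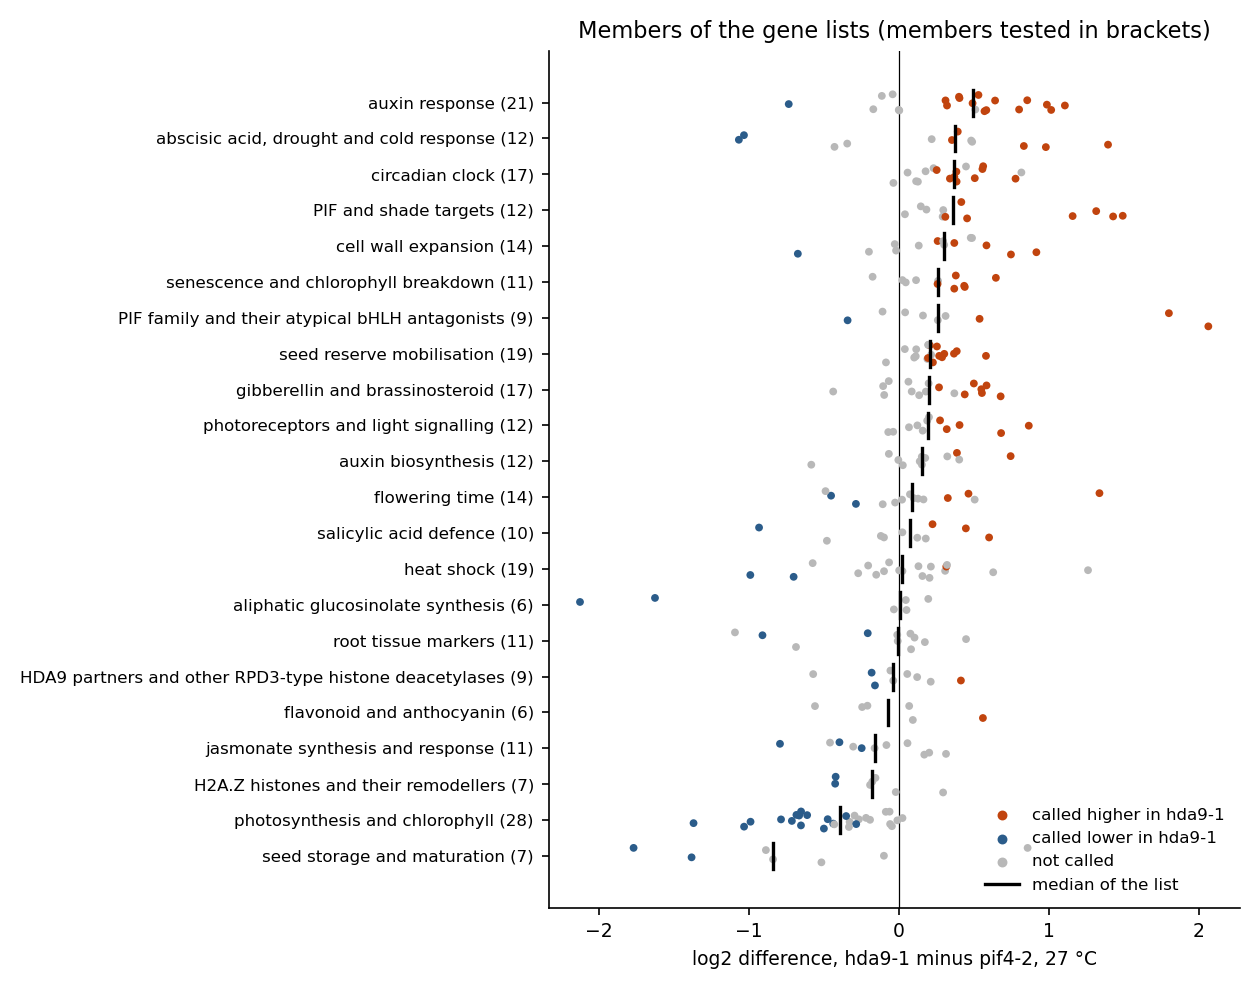
Each point is 1 tested gene of the list named at the left, placed by its log2 difference hda9-1 minus pif4-2 at 27 °C, and the black bar is the median of the list. Auxin response (median 0.49, 14 genes higher and 1 lower) is at the top and photosynthesis and chlorophyll (median -0.39, 15 lower) near the bottom; grey points were not called.

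The abscisic acid, drought and cold list did not move one way: 5 of 12 tested genes (15 listed) were higher in hda9-1 and 2 lower. The called share was 58.3%, beside 30.4% of all genes. NCED3 (AT3G14440), the enzyme that limits abscisic acid synthesis in drought, held 446, 421 and 446 normalised counts in hda9-1, against 243, 206 and 216 in pif4-2 and 448, 373 and 508 in WT (log2 difference 0.98, SE 0.13, adjusted p = 2.44e-05). CYP707A1, an enzyme that breaks abscisic acid down, was higher too, at 249, 262 and 209.8 normalised counts in hda9-1, against 134, 125 and 142 in pif4-2 and 187, 234 and 263 in WT (log2 difference 0.83, SE 0.13, adjusted p = 0.000154). At both genes hda9-1 lay within the range of WT, and pif4-2 lay below it. The response genes RAB18 (AT5G66400), a dehydrin, and RD29B (AT5G52300) were lower in hda9-1: RAB18 held 640.3, 858 and 635 normalised counts in hda9-1, against 1298, 1357 and 1700.4 in pif4-2 and 2123, 1913 and 2318 in WT (log2 difference -1.03, SE 0.16, adjusted p = 9.88e-05). RD29B held 569, 605 and 495 normalised counts in hda9-1, against 978, 1211 and 1327 in pif4-2 and 1142, 1250.2 and 1413 in WT (log2 difference -1.07, SE 0.16, adjusted p = 0.000112). Here pif4-2 was the mutant near WT at RD29B, and at RAB18 both were below it.

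Of 21 seed storage and maturation genes only 7 reached the level for testing, and 2 of these were lower in hda9-1 (28.6% called, under the 30.4% of all genes). The 2 were OLEO2, an oil body protein, at 26.9, 43.4 and 8.30 normalised counts in hda9-1, against 57.4, 81.8 and 93.6 in pif4-2 and 92.8, 90.7 and 95.6 in WT (log2 difference -1.77, SE 0.47, adjusted p = 0.00817), and EM6, a protein of late seed maturation, at 30.8, 73.8 and 24.1 normalised counts in hda9-1, against 82.7, 88.4 and 141 in pif4-2 and 94.2, 108 and 144 in WT (log2 difference -1.38, SE 0.39, adjusted p = 0.0129). Both rest in part on 1 library. Replicate 3 was the lowest of the hda9-1 group at both genes, and without it OLEO2 had an adjusted p of 0.0522 and EM6 of 0.0754, so neither was called. EM6 was also lost without hda9-1 replicate 1 or pif4-2 replicate 3. The 5 seed markers summed to 18.9 to 395 normalised counts in hda9-1, against 109.5 to 140.1 in pif4-2 and 138 to 428 in WT, with 0 higher and 1 lower of the 2 tested. These markers all belong to the seed list and the lower one is OLEO2, so they are no separate measure of seed tissue. The part of seed tissue in this result was not tested. Of 19 genes of seed reserve mobilisation 10 were higher in hda9-1 and none lower (52.6% called, beside 30.4% of all genes, median log2 difference 0.21), with 6 called without hda9-1 replicate 2 and 6 without pif4-2 replicate 1. ACX1 (AT4G16760), an enzyme of fatty acid β-oxidation, held 11123, 12543 and 9787 normalised counts in hda9-1, against 6987, 8061 and 7234 in pif4-2 and 9547, 10396 and 8631 in WT (log2 difference 0.58, SE 0.09, adjusted p = 9.26e-05), and SDP1, the main oil lipase, held 5306, 5266 and 5169.7 normalised counts in hda9-1, against 3996, 4150.4 and 3898 in pif4-2 and 3892, 4433 and 4064 in WT (log2 difference 0.39, SE 0.06, adjusted p = 0.000259). At both genes the 2 mutants did not overlap. ACX2 and ACX4, of the same pathway, were higher by log2 differences of 0.37 and 0.30.

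Growth hormone and cell wall genes were mostly higher in hda9-1 where they were called. Of 17 gibberellin and brassinosteroid genes 7 were higher and none lower (41.2% called, beside 30.4% of all genes). GA3OX1 (AT1G15550), which makes active gibberellin, held 338, 304 and 323 normalised counts in hda9-1, against 195, 185 and 223 in pif4-2 and 266, 242 and 278 in WT (log2 difference 0.68, SE 0.10, adjusted p = 5.80e-05). BR6OX2 (AT3G30180), a late enzyme of brassinosteroid synthesis, held 1285, 1316 and 1437 normalised counts in hda9-1, against 874, 873 and 1004 in pif4-2 and 1587, 1556 and 1605 in WT (log2 difference 0.55, SE 0.06, adjusted p = 6.28e-06). At GA3OX1 hda9-1 lay above WT and pif4-2 below it, while at BR6OX2 both mutants lay below WT. CPD, another brassinosteroid enzyme, and RGA, a repressor of gibberellin signalling, were higher by 0.55 and 0.44. Of 14 tested cell wall expansion genes (16 listed) 5 were higher and 1 lower (42.9% called, beside 30.4% of all genes). With the replicate block 8 were higher, and 3 without pif4-2 replicate 2. XTH24 (AT4G30270), a wall-modifying enzyme, held 48092, 45867 and 59954 normalised counts in hda9-1, against 22959.7, 26303 and 32476 in pif4-2 and 29484, 34833 and 36094 in WT (log2 difference 0.92, SE 0.16, adjusted p = 0.000466), whereas the expansin EXPA4 was lower, at 547, 572 and 564 normalised counts in hda9-1, against 870.3, 894 and 922 in pif4-2 and 914, 787 and 899 in WT (log2 difference -0.67, SE 0.07, adjusted p = 2.88e-06). Its relative EXPA8 and the enzyme XTH17 were higher by 0.58 and 0.75. Of 11 tested senescence and chlorophyll breakdown genes (13 listed) 6 were higher and none lower (54.5% called, beside 30.4% of all genes). PPH (AT5G13800), which removes the phytol tail of chlorophyll breakdown products, held 4826, 5014 and 5149 normalised counts in hda9-1, against 3017, 3349 and 3206 in pif4-2 and 4156, 3956 and 3958 in WT (log2 difference 0.65, SE 0.08, adjusted p = 9.10e-06). APG9, an autophagy protein, PAO, an enzyme of chlorophyll breakdown, and WRKY6, a senescence factor, were higher by 0.44, 0.38 and 0.44.

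Defence, flowering and heat lists held few calls or calls in both directions. Of 10 tested salicylic acid genes (17 listed) 3 were higher and 1 lower (40.0% called, beside 30.4% of all genes). The lower one was ICS1 (AT1G74710), the main enzyme of salicylic acid synthesis, with 296, 303 and 283 normalised counts in hda9-1, against 603, 522 and 562 in pif4-2 and 273, 252 and 251 in WT (log2 difference -0.93, SE 0.07, adjusted p = 1.70e-07). At ICS1 pif4-2 stood far above both other genotypes. SNC1, an immune receptor, held 3304, 3113 and 3601 normalised counts in hda9-1, against 2444, 2249.9 and 2657 in pif4-2 and 1661, 1734 and 1905 in WT (log2 difference 0.45, SE 0.08, adjusted p = 0.000351). It was higher in hda9-1 than in pif4-2, and WT was below both. NPR1, a salicylic acid receptor, and CBP60G, a factor that activates ICS1, were higher by 0.23 and 0.60, the second not without hda9-1 replicate 3 or pif4-2 replicate 1. Of 11 tested jasmonate genes (14 listed) none was higher and 3 were lower (27.3% called, under the 30.4% of all genes). Only 1 was still called without hda9-1 replicate 2 or pif4-2 replicate 1. OPR3 (AT2G06050), a reductase of jasmonate synthesis, held 247, 314 and 273 normalised counts in hda9-1, against 497, 446 and 500.0 in pif4-2 and 577, 510.3 and 506 in WT (log2 difference -0.79, SE 0.10, adjusted p = 1.53e-05). AOC1 and LOX3, of the same pathway, were lower by log2 differences of -0.25 and -0.40, and with the replicate block LOX3 was not called (adjusted p = 0.052). AOC1 was not called without hda9-1 replicate 2 or pif4-2 replicate 1 or 3, and LOX3 not without hda9-1 replicate 1 or 2 or pif4-2 replicate 1 or 2.

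In flowering time 3 of 14 tested genes (21 listed) were higher and 2 lower (35.7% called, beside 30.4% of all genes). AGL19 (AT4G22950), a MADS-box promoter of flowering that HDA9 is known to repress, held 20.0, 18.8 and 20.4 normalised counts in hda9-1, against 5.36, 7.91 and 8.71 in pif4-2 and 8.19, 8.50 and 11.2 in WT (log2 difference 1.34, SE 0.32, adjusted p = 0.00416). Its counts were low, but hda9-1 stood above both other genotypes without overlap. SOC1, another promoter of flowering, MAF3 and MAF4, related repressors, had log2 differences of 0.46, 0.33 and -0.45. SOC1 was not called without hda9-1 replicate 1 or 3 or pif4-2 replicate 2, and MAF4 not without pif4-2 replicate 1 or 2. Of 19 tested heat shock genes (20 listed) 1 was higher and 2 lower (15.8% called, under the background of 30.4%), with 4 higher under the replicate block. The small heat shock proteins HSP17.6A and HSP17.4 were lower, HSP17.6A at 136, 158 and 186 normalised counts in hda9-1, against 218, 389 and 374 in pif4-2 and 282, 318 and 199.6 in WT (log2 difference -0.99, SE 0.25, adjusted p = 0.00609) and HSP17.4 by a log2 difference of -0.70, a call lost without hda9-1 replicate 1 or pif4-2 replicate 2 or 3. HSFB2A, a heat shock factor, was higher by 0.32. Of 6 tested flavonoid genes (15 listed) 1 was higher (16.7% called), TT5, an early enzyme of the pathway (0.56).

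Glucosinolates, the sulfur-rich defence compounds of the mustard family, held some of the largest named differences. Of 6 tested aliphatic glucosinolate synthesis genes (10 listed) 2 were lower and none higher. The called share was 33.3%, near the 30.4% of all genes, and the median log2 difference of the list was 0.01. CYP83A1 (AT4G13770), a cytochrome P450 of core synthesis, held 8.47, 14.5 and 9.81 normalised counts in hda9-1, against 58.2, 40.9 and 52.3 in pif4-2 and 61.4, 50.1 and 53.7 in WT (log2 difference -2.13, SE 0.28, adjusted p = 2.60e-05). MAM1 (AT5G23010), which lengthens the methionine side chain, held 27.7, 44.9 and 39.2 normalised counts in hda9-1, against 126, 135 and 90.0 in pif4-2 and 147, 146 and 163 in WT (log2 difference -1.63, SE 0.24, adjusted p = 8.02e-05). At both genes hda9-1 was low and pif4-2 lay at or just under WT. ESM1 (AT3G14210) sits at the other end of the pathway and is known to steer glucosinolate breakdown away from nitriles. It held 8149.6, 8404 and 8305 normalised counts in hda9-1, against 1333, 1409 and 976 in pif4-2 and 2468, 2008 and 2145 in WT, with hda9-1 far above both other genotypes and pif4-2 below WT (6.77-fold higher in hda9-1, log2 difference 2.76, SE 0.11, adjusted p = 2.56e-11).

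The other genes of the 10 largest rises (called, without overlap, and with a mean count of 50 or more) fell into 2 patterns by their WT level. At AT2G01422, a noncoding RNA, the values were 152, 88.3 and 166 normalised counts in hda9-1, against 6.12, 0 and 7.98 in pif4-2 and 1186, 979 and 1164 in WT (log2 difference 5.04, SE 0.72, adjusted p = 6.14e-05). ADS4 (AT1G06350), of a fatty acid desaturase family, held 131, 204 and 116 normalised counts in hda9-1, against 5.36, 3.96 and 18.9 in pif4-2 and 176, 129 and 213 in WT (17.2-fold higher, adjusted p = 1.11e-06). In these 2, and in AT5G44440, of the FAD-binding berberine family (log2 difference 1.87, adjusted p = 0.0485, lost in 8 of 14 settings, any single library left out among them), pif4-2 was the low group and WT was at or above hda9-1. At the others hda9-1 stood above both. MRN1 (AT5G42600), which makes the triterpene marneral, held 358, 525 and 396 normalised counts in hda9-1, against 94.1, 102 and 90.0 in pif4-2 and 80.5, 86.0 and 50.2 in WT (log2 difference 2.13, SE 0.46, adjusted p = 0.002). EARLI1 (AT4G12480), a lipid-transfer family protein induced by cold, held 739, 1114 and 371 normalised counts in hda9-1, against 130.1, 195 and 100.2 in pif4-2 and 189.7, 255 and 113 in WT (log2 difference 2.29, SE 0.35, adjusted p = 0.0001), with a wide spread in hda9-1. AT2G45135, a RING protein, AT1G33813, of unknown function, and AT5G60610, an F-box protein, were higher by 2.98, 1.96 and 1.81.

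Beside HDA9, the 10 largest falls also parted by WT level. UBC12 (AT3G08700), a ubiquitin-conjugating enzyme, held 3.08, 1.45 and 2.26 normalised counts in hda9-1, against 95.7, 123 and 113 in pif4-2 and 1.36, 6.61 and 3.49 in WT (log2 difference -5.12, SE 0.53, adjusted p = 2.97e-06). PGL5 (AT5G24420), a 6-phosphogluconolactonase of the pentose phosphate pathway, held 97.0, 104 and 83.0 normalised counts in hda9-1, against 560.3, 502 and 496 in pif4-2 and 123, 116 and 99.8 in WT (log2 difference -2.45, SE 0.10, adjusted p = 2.56e-11). AT2G15020, of unknown function, held 16.9, 10.1 and 14.3 normalised counts in hda9-1, against 134, 98.9 and 147 in pif4-2 and 9.55, 2.83 and 7.68 in WT (log2 difference -3.11, SE 0.29, adjusted p = 9.78e-07). At these genes pif4-2 was far above both other genotypes. The hda9-1 and WT values overlapped at UBC12 and PGL5, while at AT2G15020 hda9-1 was 2.06-fold above WT (log2 difference hda9-1 minus WT 1.04, adjusted p = 0.00908). AT4G13575, of unknown function, and VIM5, of a family that keeps up DNA methylation, were lower by -3.02 and -2.82, with WT between the mutants. HEI10, a RING protein of meiotic crossover, was lower by -2.32. It held 73.1, 57.9 and 45.3 normalised counts in hda9-1, against 302, 389 and 213 in pif4-2 and 95.5, 87.9 and 57.9 in WT. Here too pif4-2 was far above both other genotypes, and the hda9-1 and WT values overlapped. But the HEI10 locus overlaps genes on both strands, so its reads may be theirs.

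At the other 3 genes pif4-2 was near WT and hda9-1 low. AT2G42560, a late embryogenesis abundant protein, held 33.1, 63.7 and 11.3 normalised counts in hda9-1, against 129, 203 and 258 in pif4-2 and 221, 172 and 269 in WT (log2 difference -2.66, SE 0.48, adjusted p = 0.00049). AT1G04560, an AWPM-19-like membrane protein, held 21.5, 31.8 and 6.04 normalised counts in hda9-1, against 52.8, 111 and 122 in pif4-2 and 102, 85.0 and 135 in WT (log2 difference -2.38, SE 0.77, adjusted p = 0.0264). AT3G58450, an adenine nucleotide hydrolase-like protein, held 27.7, 40.5 and 4.53 normalised counts in hda9-1, against 80.4, 103 and 119.7 in pif4-2 and 104, 122 and 142 in WT (log2 difference -2.42, SE 0.59, adjusted p = 0.00481). At all 3 genes hda9-1 replicate 3 was the lowest library, and without it AT1G04560 was not called (adjusted p = 0.136), nor was it without pif4-2 replicate 2 or 3. The promoters of PGL5, high in pif4-2 alone, and AT1G04560, low in hda9-1 alone, are shown because a G-box was more frequent among the genes at least 2-fold lower (14.5%) than among all (8.80%); no test was made of this. PGL5 (chr5:8338033-8338282, minus strand) has a G-box 42 bases before its start, and AT1G04560 (chr1:1244697-1244946, plus strand) has 1 at 106 and 1 at 54 bases, in capitals in these 250 bases of TAIR10.1, 5′ to 3′.
PGL5: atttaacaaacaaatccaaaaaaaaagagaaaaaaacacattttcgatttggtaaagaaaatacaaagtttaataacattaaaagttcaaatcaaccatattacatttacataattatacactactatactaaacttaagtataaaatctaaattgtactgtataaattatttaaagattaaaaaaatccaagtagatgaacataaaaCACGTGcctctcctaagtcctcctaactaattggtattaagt
AT1G04560: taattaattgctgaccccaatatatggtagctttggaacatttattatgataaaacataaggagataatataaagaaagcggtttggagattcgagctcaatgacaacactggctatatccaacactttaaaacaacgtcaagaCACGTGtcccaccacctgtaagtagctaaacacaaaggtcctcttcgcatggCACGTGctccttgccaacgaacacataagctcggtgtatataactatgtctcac

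WT was set beside the mutants for all genes. Its mean log2 level lay nearer to pif4-2 than to hda9-1 at 55.3% of all genes tested, at 64.1% of those called higher in hda9-1 and at 55.0% of those called lower. Among genes at least 2-fold lower in hda9-1 the share was 68.4%, and among those at least 2-fold higher 54.2%. WT lay between both mutants at 54.4% of the genes called higher and 57.4% of those called lower, against 33.2% of all genes. Called genes were chosen for a gap between the mutants, which alone makes WT lie between them more often. The excess over all genes is therefore no result about WT. Against the same 3 WT libraries, 7237 genes were called in hda9-1 (35.2%) and 5275 in pif4-2 (25.6%).

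The same comparison at 22 °C used other libraries of both mutants and gave a like count, with 6742 genes called (32.8%), 3485 higher (16.9%) and 3257 lower (15.8%) in hda9-1. Of the genes called at 27 °C, 3903 were also called at 22 °C, and 3877 of these had the same direction at both temperatures. Those 3877 are 62.0% of the genes called at 27 °C and 57.5% of those called at 22 °C. All 18 libraries share 1 estimate of spread. Without pif4-2 replicate 3 at 22 °C, 8448 genes were called at 27 °C and 7131 at 22 °C, with 5148 in common and 5095 in the same direction. HDA9 and HFR1 had log2 differences of -2.78 at 27 °C and -3.45 at 22 °C and 2.06 at 27 °C and 1.85 at 22 °C. LHCB1.2 stood at -1.37 at 27 °C and -0.37 at 22 °C, and CCA1 at 0.56 at 27 °C and 0.26 at 22 °C. For these 4 genes the difference between temperatures was not called.

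A test of that difference itself, hda9-1 minus pif4-2 at 27 °C less the same at 22 °C, called 74 genes (0.36%), 35 with a positive (0.17%) and 39 with a negative value (0.19%). At an unadjusted p under 0.05 there were 2582. Without pif4-2 replicate 3 at 22 °C the count was 248, and between 18 and 40 genes were called without any 1 of hda9-1 replicates 1, 2 and 3 at 22 °C, 1 and 3 at 27 °C, pif4-2 replicate 1 at 22 °C or pif4-2 replicates 1, 2 and 3 at 27 °C. ESM1 had log2 differences of 2.76 at 27 °C and 1.38 at 22 °C (1.38, SE 0.15, adjusted p = 0.000759 for the difference between temperatures). At 22 °C it held 7871, 9187 and 8119.6 normalised counts in hda9-1, against 2916, 3452 and 3293 in pif4-2 and 4875, 4615 and 4577 in WT, so hda9-1 was at a like level at both temperatures, and pif4-2 and WT were lower at 27 °C than at 22 °C. IAA29 had log2 differences of 1.11 at 27 °C and 1.87 at 22 °C (-0.76, SE 0.14, adjusted p = 0.0275), and at 22 °C it held 469, 562 and 495 normalised counts in hda9-1, against 129, 155 and 131 in pif4-2 and 1517, 1643 and 1707 in WT. YUC8 stood at 0.40 at 27 °C and 1.40 at 22 °C, and its difference between temperatures was not called (-0.99, SE 0.23, adjusted p = 0.0732). Among the 22 gene lists, 1 auxin response gene with a negative value, IAA29, and 1 glucosinolate gene with a positive value, MAM1, were called for the difference.

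**Figure D4:**
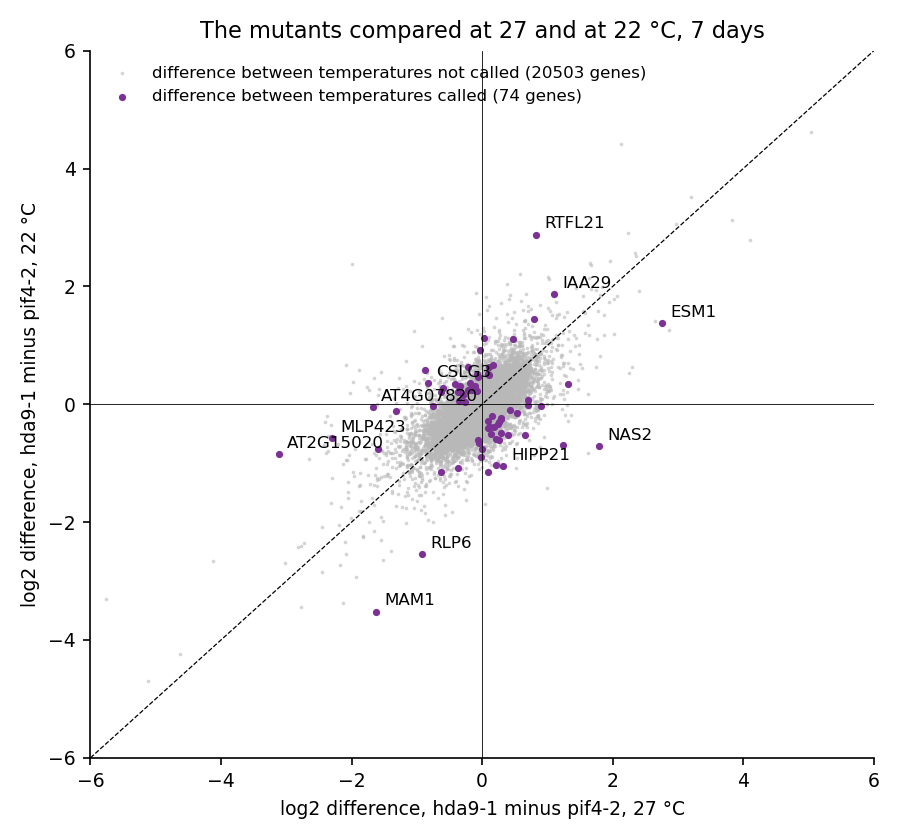
Each point is 1 of the 20577 genes, with its log2 difference hda9-1 minus pif4-2 at 27 °C on the horizontal and at 22 °C on the vertical axis; the dashed line marks equal differences. The 74 genes called for a difference between temperatures are in purple: ESM1 (2.76 and 1.38) lies right of the line, and RTFL21 (0.83 and 2.88) left of it.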

How the data were processed

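Libraries were made per the labels' protocols with the TruSeq kit and read as single reads of 50 bp on a HiSeq2500. Per the submitters' processing notes, TopHat2, Bowtie, HTSeq, DESeq and FastQC were used with the build TAIR10. The authors deposited a signal per gene: reads counted in the gene, scaled by the size factor of the library. Whole reads could be recovered for 100% of values (tolerance 0.01). In the 6 libraries 6.34 to 7.50% of reads were not placed uniquely, 1.08 to 1.13% were ambiguous, and 0.741 to 0.831% lay outside genes; these stayed out of all tests. The strand setting, the annotation version and the libraries scaled together are not given in the sources used here.

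A gene was tested where 3 or more of the 6 libraries held 10 or more. The test was limma-trend with eBayes (limma 3.58.1, R 4.3.3), on log2 values after adding 1. The fit held 18 libraries in 6 groups of 3, with 12 residual and 5.41 prior degrees of freedom. A gene was called at an adjusted p (Benjamini-Hochberg, all 20577 genes) under 0.05. Tests were two-sided and checked on simulated data. Alternatives were a pseudocount of 8, no filter, the replicate block, TMM factors, the recovered reads in edgeR 4.0.16 and in DESeq2 1.42.0, a fit of the compared groups alone, no pif4-2 replicate 3 at 22 °C, and each library left out.

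For the replicate block, replicate numbers were taken as pairing the 27 °C libraries, since the deviations of same-numbered hda9-1 and pif4-2 libraries from their group means correlated at 0.21, 0.28 and 0.38 across genes. The labels do not say so, and the main test did not use the pairing. No 2 libraries agreed within sampling noise.

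Names came from RefSeq by locus (32835 of 33540 genes). The named genes are HDA9, PIF4, YUC8, IAA19, IAA29, the 10 largest called rises and falls without overlap at a mean of 50 or more, up to 4 called members of each of 22 lists (smallest p, or the 2 smallest where none was called), and the 5 largest differences between temperatures each way. Of 349 list entries 344 were kept. The members and lists were chosen with earlier results of these data known.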

Additional observations from a re-analysis of the deposited data

Results flagged for a closer look

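The difference between hda9-1 and pif4-2 was itself different at 27 and at 22 °C for 74 genes, by the test of that difference (limma, adjusted over 20577 genes). The 5 largest positive and 5 largest negative values among those whose mean over the 12 mutant libraries was 50 or more are given as log2 at 27 °C less log2 at 22 °C.

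ESM1 differed by 1.38, with log2 differences of 2.76 at 27 °C and 1.38 at 22 °C. NAS2, a nicotianamine synthase of metal transport, differed by 2.51 (adjusted p = 0.00331): at 27 °C it held 20.8, 31.8 and 20.4 normalised counts in hda9-1, against 6.12, 3.96 and 9.43 in pif4-2 and 12.3, 12.3 and 9.07 in WT, and at 22 °C 158, 149 and 149.7 normalised counts in hda9-1, against 239, 208 and 316 in pif4-2 and 367, 230.4 and 296 in WT. The mutants thus stood in opposite order at the 2 temperatures. MAM1 differed by 1.89; at 22 °C it held 75.0, 59.1 and 62.2 normalised counts in hda9-1, against 771, 644 and 869 in pif4-2 and 222, 172 and 394 in WT, a wider step than at 27 °C. RLP6, a receptor-like protein, differed by 1.62 (log2 differences -0.92 at 27 °C and -2.54 at 22 °C), and HIPP21, of a heavy metal-associated family, by 1.37 (0.32 at 27 °C and -1.05 at 22 °C). The mutant groups of HIPP21 overlapped at 27 °C, and its call was lost in 11 of 20 settings.

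AT2G15020 differed by -2.27 (-3.11 at 27 °C and -0.85 at 22 °C). RTFL21, a small peptide of the ROTUNDIFOLIA-like family, differed by -2.05: at 27 °C it held 379, 411 and 472 normalised counts in hda9-1, against 239, 236 and 232 in pif4-2 and 793, 774 and 957 in WT, and at 22 °C 51.8 ± 13.9 in hda9-1, 6.62 ± 3.63 in pif4-2 and 101 ± 5.28 in WT (mean ± SD, n = 3). hda9-1 was between pif4-2 and WT at both temperatures. MLP423, a major latex protein-like protein, differed by -1.72 (-2.29 at 27 °C and -0.58 at 22 °C), AT4G07820, of the cysteine-rich CAP family, by -1.63 (-1.67 at 27 °C and -0.04 at 22 °C), and CSLG3, a cellulose synthase-like protein, by -1.19 (-0.84 at 27 °C and 0.36 at 22 °C). Over 20 alternative settings, 3 of these 10 genes were called in every one, ESM1, NAS2 and CSLG3, and the other 7 lost the call in at least 1, most often when 1 library was left out.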

How the results depend on the processing

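The 27 °C comparison kept its count within 1.5 times in all 14 alternatives, at 4650 to 5342 genes with 1 library left out and 6028 to 8448 otherwise. Of 100 named genes 78 kept their call or lack of it in all 14, and none reversed. The replicate block gave 6981 genes called (3767 higher and 3214 lower in hda9-1), and beside the changes given with the genes above it changed no other named call. TMM factors moved the median log2 difference of all genes to -0.01 from 0.01. The difference between temperatures was less stable. It called 336 genes with DESeq2 (173 positive, 163 negative), 202 with the replicate block (115 and 87), 248 without pif4-2 replicate 3 at 22 °C (129 and 119) and 24 with only the compared groups (13 and 11), where the spread rests on fewer libraries. With each library left out in turn it called 18 to 248 (9 to 129 positive, 8 to 119 negative). Not all same-numbered pairs of those 4 groups correlated (lowest 0.0039), so the block is only a description there; the cause of these shifts was not tested. Small lists moved most with 1 library left out, as given beside them. Of the list counts of 0, H2A.Z genes called higher became 1 with DESeq2, with only the compared groups and without pif4-2 replicate 3 at 22 °C, seed genes called higher became 1 with DESeq2 and without hda9-1 replicate 3 at 27 °C, flavonoid genes called lower became 1 without the filter, and the others stayed at 0 in all 14 alternatives. At 28455368 reads or more per library, depth limits mainly genes of low counts, where a few reads are a large fold.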

Other observations

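The genes and gene families here were chosen after their values were seen, from words in the annotation's product names, and are described with no test beyond that of each gene. Of 67 tested light-harvesting and photosystem genes 1 was higher in hda9-1 than in pif4-2 and 34 were lower (52.2% called), with 0 higher and 21 lower when hda9-1 replicate 3 was left out. Their summed level was 3255000, 3465000 and 3107000 normalised counts in hda9-1, against 4937000, 5000000 and 4722000 in pif4-2 and 3879000, 3508000 and 3481000 in WT, so pif4-2 stood above both other genotypes. Of 59 SAUR-like genes 15 were higher and 2 lower (28.8% called), and 9 were higher without hda9-1 replicate 3. Of 190 F-box genes 46 were higher and 11 lower (30.0% called). These shares, and those of the ribosomal and late embryogenesis abundant proteins, are near or under the 30.4% of all genes. Of 314 ribosomal protein genes 8 were higher and 72 lower (25.5% called, beside 30.4% of all genes), with 17 higher and 129 lower in the fit without pif4-2 replicate 3 at 22 °C. Of 73 late embryogenesis abundant proteins and dehydrins 5 were higher and 18 lower (31.5% called), and 3 were higher and 11 lower without hda9-1 replicate 3, with 8 higher in the fit without pif4-2 replicate 3 at 22 °C. Of 10 root hair specific genes 8 were lower and none higher (80.0% called, beside 30.4% of all genes). But only 1 was lower without hda9-1 replicate 3. The summed level of the 10 was 246, 213 and 174 normalised counts in hda9-1, against 470.0, 376 and 337 in pif4-2 and 317, 385 and 280 in WT.

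Further genes of glucosinolate breakdown lay opposite to ESM1. ESP, the epithiospecifier protein that leads breakdown to nitriles, held 11.5, 15.9 and 14.3 normalised counts in hda9-1, against 53.6, 68.6 and 61.0 in pif4-2 and 62.8, 51.0 and 53.7 in WT (log2 difference -2.06, SE 0.21, adjusted p = 2.87e-06). TGG2, a myrosinase that starts the breakdown, held 270.1, 311 and 369.7 normalised counts in hda9-1, against 1170.3, 1116 and 1159 in pif4-2 and 621, 741 and 743 in WT (log2 difference -1.87, SE 0.15, adjusted p = 2.32e-07). hda9-1 was below both other genotypes at both genes, and pif4-2 was above WT at TGG2. In iron handling, FER1, an iron storage ferritin, held 10470.1, 10611 and 13331 normalised counts in hda9-1, against 4801, 5902 and 6474 in pif4-2 and 9981, 9002 and 12394 in WT (log2 difference 1.00, SE 0.17, adjusted p = 0.000247), and NAS3, a nicotianamine synthase, held 48.5, 56.4 and 55.1 normalised counts in hda9-1, against 13.8, 13.2 and 22.5 in pif4-2 and 21.8, 41.6 and 39.1 in WT (log2 difference 1.67, SE 0.41, adjusted p = 0.00477). At FER1 pif4-2 was the low group. SHL1, a chromatin reader of the BAH and PHD finger type, held 3573, 3828 and 3803 normalised counts in hda9-1, against 1178, 1188 and 1253 in pif4-2 and 3329, 3134 and 3364 in WT (log2 difference 1.63, SE 0.05, adjusted p = 2.23e-12), with hda9-1 just above WT and pif4-2 at well under the level of both. HTA4, a histone H2A gene, held 15.4, 20.3 and 9.81 normalised counts in hda9-1, against 50.5, 93.6 and 60.2 in pif4-2 and 62.8, 60.5 and 42.6 in WT (log2 difference -2.10, SE 0.28, adjusted p = 3.65e-05). BRC1, a TCP factor that holds back branching, held 94.7, 88.3 and 118 normalised counts in hda9-1, against 23.7, 34.3 and 37.0 in pif4-2 and 53.2, 59.5 and 62.8 in WT (log2 difference 1.64, SE 0.41, adjusted p = 0.00573), with WT between the mutants. AGL42, a MADS-box gene, held 48.5, 60.8 and 79.2 normalised counts in hda9-1, against 20.7, 17.1 and 19.6 in pif4-2 and 17.7, 20.8 and 24.4 in WT (log2 difference 1.64, SE 0.22, adjusted p = 3.11e-05), and GASA1, a gibberellin-regulated peptide gene, held 64858, 50924 and 79959 normalised counts in hda9-1, against 29749.6, 27664 and 39404 in pif4-2 and 31187, 27299 and 32596 in WT (log2 difference 1.01, SE 0.15, adjusted p = 6.89e-05). At these last 2 genes hda9-1 alone stood high.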
